A study of Mus musculus with 6 samples.

Results

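Canonical Wnt output was examined in cultured mouse pancreatic acini through 10 genes, namely Ctnnb1, which encodes beta-catenin, and 9 genes that read, relay or restrain its signal (Axin2, Nkd1, Znrf3, Rnf43, Lef1, Tcf7, Sp5, Lgr5 and Notum). Members were taken by gene name, and each matched 1 row among the 56953 genes of the count table. RNA was sequenced on day 3 of an ex vivo assay of acinar-to-ductal metaplasia (ADM): primary acini embedded in Matrigel take on a duct-like form. All cultures were kept in Waymouth medium with serum, trypsin inhibitor and dexamethasone.

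The 3 groups held 2 libraries each. WT acini carried wild-type Dkk3 and came from mice of 10 and 11 weeks. DD acini were Dkk3-null, homozygous for a ubiquitous allele that lacks exon 2, the exon encoding the signal for secretion, and came from mice of 12 and 13 weeks. DD + rDKK3 acini were of the same null genotype, received recombinant DKK3 protein in the dish, and came from mice of 14 and 15 weeks. These ages are those of the labels, which rise by 1 week from each sample to the next in the order listed. As labelled, age and group cannot be told apart, and 1 WT library (WT 2) is labelled female while the other 5 are labelled male. That label is in doubt, since 4 Y-linked genes summed to 141 CPM in WT 2, inside the 119 to 147 CPM of the others, although WT 2 alone had Xist counts (16). Dkk3 itself gave 10 and 1 counts in WT, 11 and 9 in the DD pair, and 5 and 5 with rDKK3, so its gene-level count does not check the genotype labels. The paper ascribes similar Dkk3 totals in WT and DD to an intracellular isoform. With exon-specific PCR it reports that transcripts holding exon 2 were lost in DD acini.

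In the canonical Wnt pathway, a secreted Wnt protein binds a Frizzled receptor and the co-receptor LRP5 or LRP6, which stops a cytoplasmic complex built on Axin and APC from marking beta-catenin for destruction. Beta-catenin then enters the nucleus and activates genes bound by TCF and LEF proteins. Several of those genes encode inhibitors of the pathway, so their transcripts serve as a readout of signalling in many tissues, and in the adult exocrine pancreas the pathway has been linked to acinar regeneration. DKK3 belongs by sequence to the Dickkopf family, whose better known members block LRP5 and LRP6, and the comparisons asked whether the transcripts of this pathway followed its loss and its return.

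Promoter sequences of a pair of members are shown first, since the members that report Wnt signalling most directly were those near the limit of detection. Sp5, a zinc-finger transcription factor, had the only member promoter window with the TCF/LEF motif CTTTGAT or its reverse complement ATCAAAG, and Axin2, the scaffold protein used most widely as a Wnt readout, had none in its window. RefSeq windows of 300 bases (250 before the start of transcription and 50 after it, assembly GRCm38.p6, an older build than that of the counts) were found for 7 of the 10 members, 13 windows in all, but not for Znrf3, Lgr5 and Notum. The capitals mark the motif, whose first base lay at -104 from the start of Sp5 (chr2:70474673-70474972, plus strand).
Sp5: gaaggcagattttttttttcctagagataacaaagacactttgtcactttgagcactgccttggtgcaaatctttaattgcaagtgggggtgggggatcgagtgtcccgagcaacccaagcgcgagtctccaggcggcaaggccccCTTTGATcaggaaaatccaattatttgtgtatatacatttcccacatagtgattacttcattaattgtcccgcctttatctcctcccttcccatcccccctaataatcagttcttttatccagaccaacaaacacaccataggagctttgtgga
Axin2 (chr11:108920099-108920398, plus strand): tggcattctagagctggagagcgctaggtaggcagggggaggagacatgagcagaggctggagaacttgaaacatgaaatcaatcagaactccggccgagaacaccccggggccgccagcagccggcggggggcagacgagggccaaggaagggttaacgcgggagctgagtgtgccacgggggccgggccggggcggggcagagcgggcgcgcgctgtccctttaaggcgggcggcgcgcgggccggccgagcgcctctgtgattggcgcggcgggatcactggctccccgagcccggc
The motif was present in 1 of the 13 member windows and in 3.73% of 32851 windows of all genes. Only the exact motif and its reverse complement were searched, so variants of it and sites outside the windows are not marked or counted. The Axin2 window held 31 CpG dinucleotides and the Sp5 window 6, against a median of 7 over all windows.

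Beta-catenin transcripts were abundant in every culture, the receptor-removing ligases and Tcf7 were low but measured, and the classical target genes were close to the limit of detection. Levels are given as CPM, the counts scaled to depth with TMM factors (which correct for library composition), and 3 counts, taken as the floor, correspond to 0.142 to 0.294 CPM depending on the library. Per kilobase of exon, the scale on which genes can be set beside each other, Ctnnb1 averaged 83.5 CPM per kb over the 6 libraries (range 76.2 to 90.7). Znrf3 followed at 0.857 (0.612 to 1.03), Tcf7 at 0.836 (0.685 to 0.996), Rnf43 at 0.493 (0.373 to 0.630) and Notum at 0.0730 (0 to 0.188). Below them came Axin2 at 0.0348 (0.00761 to 0.0678), Nkd1 at 0.0299 (0.00639 to 0.0498), Sp5 at 0.00918, Lef1 at 0.00848 and Lgr5 at 0.00114. In this order the ranges of neighbouring genes did not overlap between Ctnnb1 and Znrf3, between Tcf7 and Rnf43 and between Rnf43 and Notum, and they overlapped at the other 6 steps. As these are bulk samples, fewer cells of a type and less RNA per cell cannot be told apart.

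**Figure D1:**
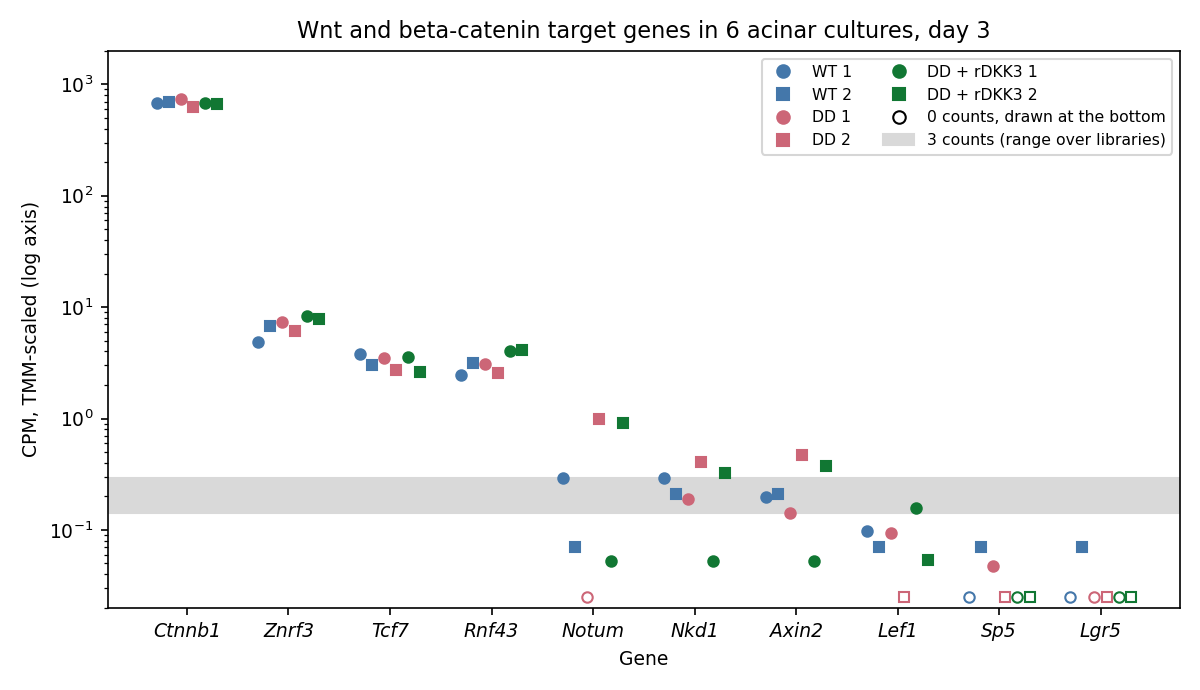
Levels of the 10 genes in the 6 libraries, as TMM-scaled CPM on a log axis, 1 point per library (circles, number 1; squares, number 2; open symbols at the bottom, 0 counts). The grey band spans the CPM of 3 counts (0.142 to 0.294). Ctnnb1 lay at 622 to 741 CPM, Znrf3, Tcf7 and Rnf43 at 2.45 to 8.28, and the other 6 genes below 1.

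The cultures were checked against cell type markers. All 10 acinar markers, digestive enzymes and acinar transcription factors among them, were above the floor in each library and took 9.47% to 13.2% of the counts, and all 8 ductal markers were above it too. None of 8 lymphocyte markers exceeded 3 counts. Fibroblast and stellate cell markers (10 genes, none at 0 throughout) summed to 111 and 39.0 CPM in WT, 60.2 and 730 in the DD pair, and 146 and 819 with rDKK3, and macrophage markers (8 genes) to 112 and 57.1, 67.7 and 227, and 81.4 and 176 CPM. The libraries DD 2 and DD + rDKK3 2 thus stood apart from the other 4 in both sums, and values without them are given below. Macrophage markers did not all follow their sum. Lyz2 measured 133 CPM in DD 2 and 85.3 in DD + rDKK3 2, against 36.2 in WT 1. C1qa measured 22.8 and 18.3 in the same 2 libraries and 19.5 in WT 1, and Cd68 was highest in DD + rDKK3 1 (42.2 CPM). Library totals ran from 12018473 counts (WT 1) to 19750401 (DD 1).

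None of the 10 genes passed the test in any of the 3 comparisons. In DD against WT, 0 of the 5 members with enough counts to be tested were called at an adjusted p under 0.05 (edgeR quasi-likelihood test), beside 6 of 14738 genes, or 0.0407%. In DD + rDKK3 against DD, 0 members were called, beside 0 genes (0%), where DESeq2 called 5 genes and 0 members. In DD + rDKK3 against WT, 0 members were called, beside 7 genes (0.0475%). At an unadjusted p under 0.05 the members also counted 0 in each comparison, beside 8.26% of all genes (1217) in DD against WT, 1.98% (292) in DD + rDKK3 against DD and 15.3% (2262) in DD + rDKK3 against WT. The members tested were Ctnnb1, Znrf3, Rnf43, Tcf7 and Notum, and Notum reached the test only through its counts in DD 2 and DD + rDKK3 2. Each of the 6 libraries is labelled with its own age, rising by 1 week from each sample to the next in the order listed, so if those ages hold the libraries of a group came from different mice. No animal is named, and the p-values measure the spread between these samples.

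Ctnnb1 (ENSMUSG00000006932.18, chr9:120758282-120789573, plus strand, GRCm39) encodes the protein that both carries the Wnt signal into the nucleus and ties E-cadherin to the cytoskeleton. It measured 678 and 698 CPM in WT, 741 and 622 in the DD pair, and 683 and 666 with rDKK3, from 6912 to 15676 counts. Both DD values lay outside the range of the other 4 libraries, on opposite sides of it, so the groups overlapped. The means were 688 ± 14.1, 682 ± 84.1 and 675 ± 12.1 CPM (SD, n = 2 each). On the log2 scale DD differed from WT by -0.01 (95% interval -0.42 to 0.39, adjusted p 0.979), DD + rDKK3 from DD by -0.01 (-0.42 to 0.39) and DD + rDKK3 from WT by -0.03 (-0.44 to 0.38). These intervals are the narrowest among the members. The sign is not settled at this size: with library totals alone as the scaling, the 2 contrasts against WT gave 0.19 and 0.13, on a scale where the median of all genes itself moved to 0.22 and 0.18.

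Other parts of the same complexes were measured well. Cdh1, which encodes the E-cadherin that beta-catenin binds at junctions, lay between 503 and 684 CPM. Of 5 junction genes, all tested, 0 were called in any comparison, and the medians of their log2 fold changes were 0.20, 0.046 and 0.28 for DD against WT, for rDKK3-treated against untreated DD, and for rDKK3-treated DD against WT (medians of all genes 0.016, -0.0028 and 0.017). Ctnna1, the alpha-catenin that links the junction to actin, was the junction gene with the smallest p against WT, with log2 differences of 0.36 (SE 0.177) for DD and 0.41 (SE 0.177) for DD + rDKK3. Its 4 null libraries, at 235 to 296 CPM, were all above the WT libraries at 198 and 214, and the difference did not pass the test.

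The DNA-binding partners of beta-catenin were scarce. Tcf7 (ENSMUSG00000000782.17, chr11:52143198-52174158, minus strand), which encodes TCF1, measured 3.83 and 3.02 CPM in WT, 3.50 and 2.70 in the DD pair, and 3.59 and 2.63 with rDKK3. The lowest value was in DD + rDKK3 2 and the highest in WT 1, and the groups overlapped. On the log2 scale DD differed from WT by -0.13 (SE 0.319, 95% interval -0.88 to 0.61), 0.0021 in DD + rDKK3 against DD (-0.73 to 0.73) and -0.13 in DD + rDKK3 against WT (-0.87 to 0.61). The sign turned in each of them under library totals alone, to 0.082, -0.044 and 0.038. On that scale the medians of all genes were 0.22, -0.043 and 0.18. Lef1 (ENSMUSG00000027985.15, chr3:130904120-131018005, plus strand), the partner that is itself switched on by Wnt in many tissues, gave 1 and 1 counts in WT, 2 and 0 in the DD pair, and 3 and 1 with rDKK3. All were at or under the floor, and no fold change is given.

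Among 14 other nuclear effectors, all tested, 0 were called in the 3 comparisons. Tcf7l2, the family member with a broad role in the gut and pancreas, lay between 4.52 and 5.59 CPM in the 6 libraries. Bcl9l, a co-activator that docks on beta-catenin, measured 31.0 and 36.3 CPM in WT, 37.6 and 35.3 in the DD pair, and 45.6 and 49.4 with rDKK3. Its DD + rDKK3 libraries were above all the others, at a log2 fold change of 0.38 (SE 0.147) against DD and 0.50 (SE 0.149) against WT, with adjusted p of 1.00 and 0.322 (edgeR). Chd8, a chromatin remodeller that binds beta-catenin, was at 0.67 (SE 0.243) in DD + rDKK3 against WT, and Tcf7l1, usually a repressor of targets, at 0.64 (SE 0.293) in DD + rDKK3 against DD.

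The highest of the feedback genes were the membrane ligases that strip Frizzled from the cell surface. Znrf3 (ENSMUSG00000041961.15, chr11:5226324-5394847, minus strand) measured 4.91 and 6.74 CPM in WT, 7.33 and 6.17 in the DD pair, and 8.28 and 7.84 with rDKK3. Rnf43 (ENSMUSG00000034177.16, chr11:87553548-87626365, plus strand), its close relative, measured 2.45 and 3.16 CPM in WT, 3.07 and 2.58 in the DD pair, and 4.01 and 4.14 with rDKK3. For both genes WT and DD overlapped, and the libraries with recombinant DKK3 were above the other 4.

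Neither of these differences passed the test. For Rnf43 the log2 difference of DD from WT was 0.0069 (95% interval -0.67 to 0.69), 0.52 in DD + rDKK3 against DD (SE 0.283, -0.14 to 1.18, edgeR adjusted p 1.00) and 0.53 in DD + rDKK3 against WT (SE 0.289, -0.14 to 1.20, adjusted p 0.380). For Znrf3 the same difference was 0.21 (-0.35 to 0.76), 0.26 in DD + rDKK3 against DD (SE 0.233, -0.29 to 0.80, adjusted p 1.00) and 0.46 in DD + rDKK3 against WT (SE 0.239, -0.093 to 1.02, adjusted p 0.364). Groups of 2 that do not overlap were common in these data: 29.5% of all tested genes in DD + rDKK3 against DD and 55% in DD + rDKK3 against WT, beside 2 of 5 tested members in each, and 37.8% in DD against WT, beside 0 of 5. The higher values with recombinant DKK3 kept their sign in all 14 alternative settings, and without DD 2 and DD + rDKK3 2 they were 0.18 (Znrf3) and 0.39 (Rnf43) against DD and 0.51 for both against WT. None was called there either.

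**Figure D2:**
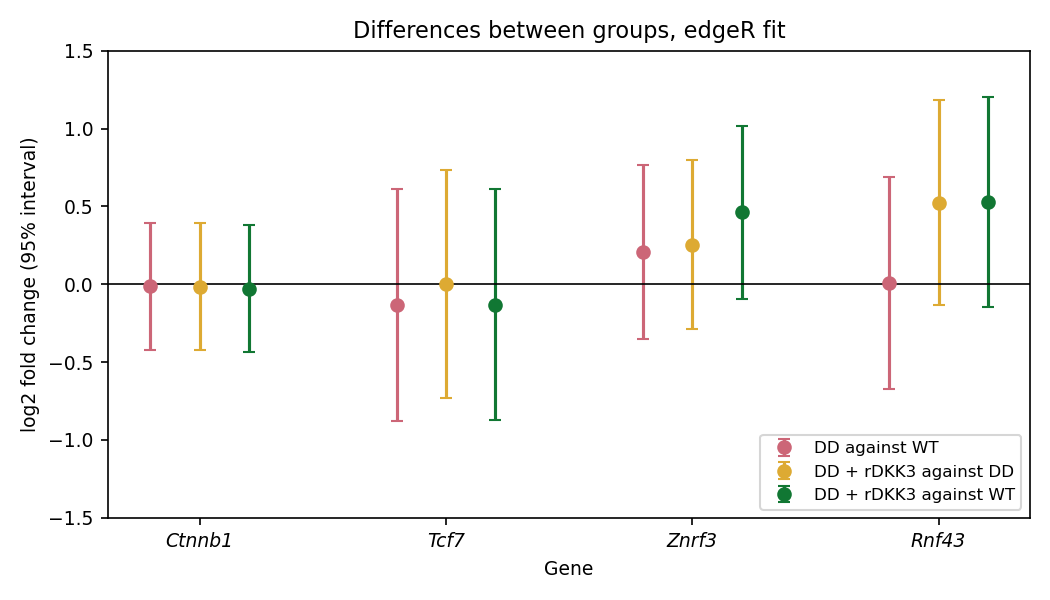
Log2 fold changes of Ctnnb1, Tcf7, Znrf3 and Rnf43 in the 3 comparisons (edgeR quasi-likelihood fit, points with 95% intervals, n = 2 libraries per group). Every interval crosses 0, and the largest values are those of Rnf43 in both comparisons with DD + rDKK3, 0.52 and 0.53.

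The ligases answer to R-spondins and their LGR receptors, which were uneven. Lgr5 (ENSMUSG00000020140.16, chr10:115286216-115423685, minus strand), the receptor known as a marker of intestinal stem cells and a Wnt target, gave 1 count in WT 2 and 0 in the other 5 libraries. A count of 0 allows up to 3 counts, so a level under 0.142 to 0.294 CPM could not be seen. Lgr4, the receptor of the same family found in many epithelia, measured 60.9 and 52.3 CPM in WT, 76.5 and 64.0 in the DD pair, and 70.6 and 78.8 with rDKK3. Both null groups lay above WT, at a log2 fold change of 0.31 (SE 0.167) and 0.40 (SE 0.167), and neither was called. The ligand Rspo3 measured 4.87 CPM in DD 2 and 3.12 in DD + rDKK3 2, against 0.211 to 1.06 in the other 4 libraries. Of the 6 genes of this arm, 3 were at or under 3 counts in every library.

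Notum (ENSMUSG00000042988.11, chr11:120544614-120552001, minus strand), a secreted enzyme that removes the lipid Wnt proteins need, varied more between libraries than any other tested member, over 3.22 log2 units (prior count of 2). It passed the filter only through its counts in DD 2 and DD + rDKK3 2, so this rank is tied to the filter. It gave 3 and 1 counts in WT, 0 and 17 in the DD pair, and 1 and 17 with rDKK3, or 0.294, 0.0702, 0, 0.998, 0.0528 and 0.913 CPM. The 2 high libraries were DD 2, with an exact 95% Poisson interval of 0.582 to 1.60 CPM, and DD + rDKK3 2, at 0.532 to 1.46. Both intervals lie above the values of the other 4 libraries, but the interval of WT 1, 0.0607 to 0.860 CPM, overlaps them. Each null group held 1 high and 1 low library, so the groups overlapped. The log2 difference of DD from WT was 1.46 (SE 1.80, edgeR adjusted p 0.761). It was 0.013 in DD + rDKK3 against DD (SE 1.38) and 1.48 in DD + rDKK3 against WT (SE 1.79, adjusted p 0.681). As a ratio of summed counts per depth, DD stood to WT as 2.72 to 1, with a counting interval of 0.887 to 11.1. Single libraries moved the fitted values: against WT, DD and DD + rDKK3 gave 2.67 and 2.68 without WT 1, 0.69 and 0.70 without WT 2, and 0.0098 and 0.051 with a replicate block within the null libraries. None of these was called. Without DD 2 and DD + rDKK3 2 the 4 remaining libraries held 0 to 3 counts, and no fold change is given for them.

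Axin2 (ENSMUSG00000000142.16, chr11:108811175-108841609, plus strand), a scaffold of the destruction complex and its own feedback inhibitor, gave 2 and 3 counts in WT, 3 and 8 in the DD pair, and 1 and 7 with rDKK3. Nkd1 (ENSMUSG00000031661.13, chr8:89247982-89321512, plus strand), which binds Dishevelled, gave 3 and 3, 4 and 7, and 1 and 6 counts in the same order. In both genes DD 2 and DD + rDKK3 2 held the highest CPM, 0.470 and 0.376 for Axin2 and 0.411 and 0.322 for Nkd1, and the groups overlapped. The ratio of summed counts per depth in DD against WT was 1.41 for Axin2 (counting interval 0.451 to 5.17) and 1.17 for Nkd1 (0.398 to 3.86). In DD + rDKK3 against DD it was 0.739 (0.258 to 2.02) and 0.647 (0.213 to 1.83), and in DD + rDKK3 against WT 1.04 (0.300 to 4.04) and 0.759 (0.218 to 2.73). Each of these 6 intervals includes a ratio of 1, and each but that of Nkd1 in DD + rDKK3 against DD also includes a ratio of 2. They pool the counts of a group and leave out the spread between its libraries. In the edgeR fit without the filter, which includes that spread, the Nkd1 interval in DD + rDKK3 against DD was -2.44 to 1.17 on the log2 scale. That interval also includes a ratio of 2, so a difference of that size was not detectable at this depth. Sp5 (ENSMUSG00000075304.3, chr2:70305267-70308073, plus strand), whose promoter carried the motif printed above, gave 1 count in WT 2, 1 in DD 1 and 0 elsewhere.

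**Figure D3:**
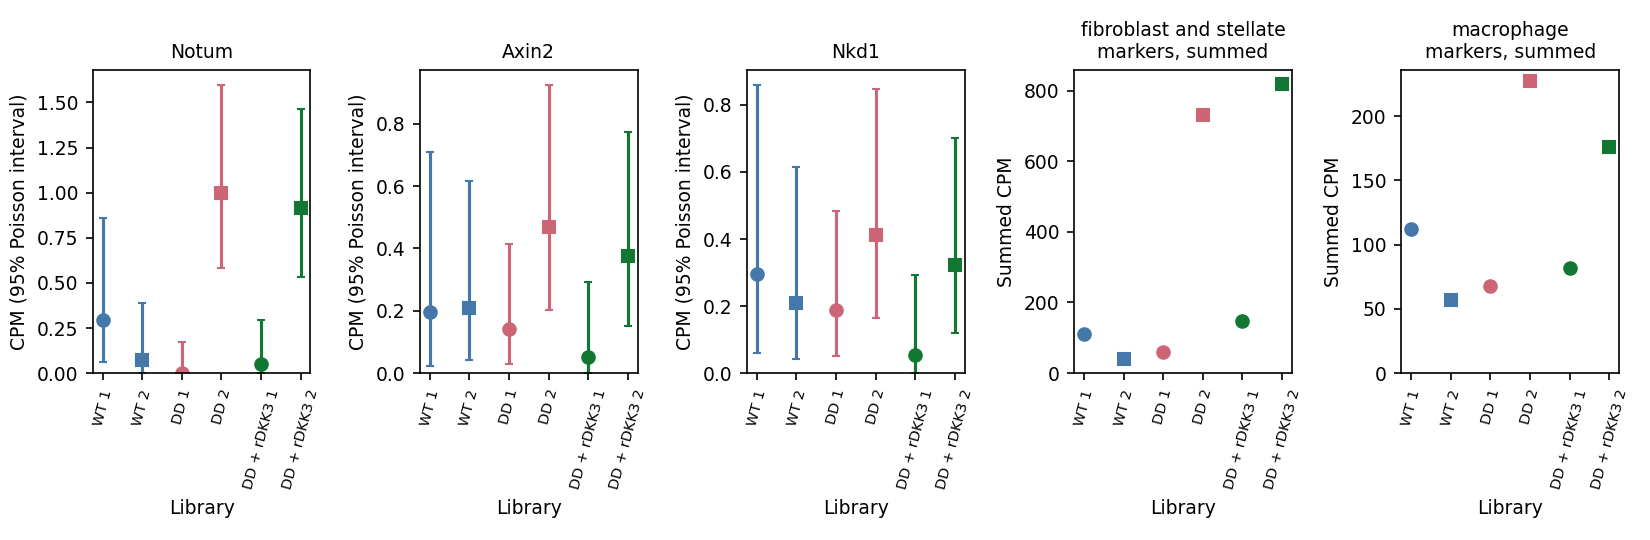
Notum, Axin2 and Nkd1 in the 6 libraries (CPM with exact 95% Poisson intervals, which cover counting error only) beside the summed CPM of 10 fibroblast and stellate cell markers and 8 macrophage markers. All 5 panels have their highest values in DD 2 and DD + rDKK3 2, and the y axes start at 0.

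The tested genes closest to Notum in pattern were Anxa1, S1pr3, Cmklr1, Lyz2 and Fcer1g, by the root mean square difference of centred log2 CPM over the 6 libraries (0.270 to 0.343, among 11864 genes with a mean log2 CPM of at least 1). Lyz2, which encodes a lysozyme of myeloid cells, measured 133 CPM in DD 2 and 85.3 in DD + rDKK3 2, against 18.1 to 36.2 elsewhere. Anxa1 measured 51.7 and 38.4 CPM in those 2 libraries, against 5.86 to 13.6 elsewhere. The fibroblast collagen gene Col1a1 measured 252 and 304 CPM there, against 10.5 to 49.8. The part of these cell types in the Notum, Axin2 and Nkd1 values was not tested. Among all 14738 tested genes, 10.5% had their 2 highest values in DD 2 and DD + rDKK3 2 and 8.46% their 2 lowest, as did Notum (highest), Ctnnb1 and Tcf7 (lowest) among the 5 tested members.

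The ligands that could drive the pathway were mostly absent from the counts. Of 19 Wnt genes, 11 were at or under 3 counts in every library, with the classical canonical ligands Wnt1 and Wnt3a at 0 in all 6, and 7 were tested with 0 called. Wnt4 was the most abundant per length, at 15.1 CPM per kb (12.7 to 20.8), and the next was Wnt9a at 1.48 (1.00 to 1.78). Wnt4 measured 64.2 and 68.2 CPM in WT, 73.1 and 74.4 in the DD pair, and 72.4 and 105 with rDKK3, at a log2 fold change of 0.42 (SE 0.196) in DD + rDKK3 against WT. Wnt5a, best known for signalling without beta-catenin, measured 5.34 and 4.08 CPM in DD 2 and DD + rDKK3 2 and 1.33 to 1.99 in the other 4. The log2 difference of DD from WT was 1.38 for Wnt5a (SE 0.569, edgeR adjusted p 0.586), and 1.19 for its relative Wnt5b (SE 0.491, adjusted p 0.586). Wnt7b measured 8.15 and 9.26 CPM in WT, 8.79 and 6.28 in the DD pair, and 5.80 and 5.64 with rDKK3, at -0.61 (SE 0.237, adjusted p 0.322) in DD + rDKK3 against WT.

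Receptors were the part of the pathway upstream of beta-catenin with the smallest p-values, and the co-receptors were above WT in all 4 null libraries. Lrp6 measured 38.9 and 45.4 CPM in WT, 66.7 and 57.1 in the DD pair, and 68.0 and 70.3 with rDKK3. DD exceeded WT by 0.55 on the log2 scale (SE 0.157, edgeR adjusted p 0.586), and DD + rDKK3 exceeded DD by 0.16 and WT by 0.71 (SE 0.157, adjusted p 0.322). Lrp5 measured 43.8 and 47.6, 62.9 and 56.8, and 60.0 and 56.3 CPM, at 0.39 (SE 0.144) in DD and 0.35 (SE 0.144) in DD + rDKK3 against WT. Between DD + rDKK3 and DD the 95% interval of the log2 difference was -0.20 to 0.52 for Lrp6 and -0.37 to 0.29 for Lrp5. Fzd3 was lower than WT in DD, at -0.47 (SE 0.161), and Fzd1 was highest in DD 2 and DD + rDKK3 2, at 26.0 and 23.2 CPM against 4.56 to 10.3. Of 15 receptor genes, 14 were tested and 0 called. DESeq2 called Lrp6 in DD + rDKK3 against WT.

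Most secreted inhibitors were nearly silent. Their list of 14 genes also holds the Kremen genes, which encode membrane proteins. Of the 14, Dkk1, Dkk4, Wif1, Sfrp4 and Sost were at 0 counts in all libraries, 8 in all were at or under 3 counts everywhere, and 3 were tested with 0 called. Kremen1, a membrane partner of the Dickkopf proteins, lay between 20.3 and 30.5 CPM, at 0.36 (SE 0.178) in DD + rDKK3 against WT. In the destruction complex and its Dishevelled partners, 15 of 16 genes were tested and 0 called. Apc, the scaffold whose loss activates the pathway in colon tumours, measured 37.4 and 70.0 CPM in WT, 88.5 and 67.7 in the DD pair, and 88.5 and 98.7 with rDKK3, at 0.54 (SE 0.287) in DD and 0.80 (SE 0.287) in DD + rDKK3 against WT. Dvl3 was at 0.66 (SE 0.217) and Gsk3b, the kinase that marks beta-catenin, at 0.44 (SE 0.174) in DD + rDKK3 against WT. The 2 genes for Wnt secretion, Porcn and Wls, were measured and not called.

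Genes often listed as Wnt targets, though shared with other pathways, held the smallest p-values among pathway genes in DD against WT and in DD + rDKK3 against DD. Of 17, 16 were tested and 0 called. Mmp7, a secreted protease of ducts, measured 327 and 314 CPM in WT, 86.2 and 207 in the DD pair, and 110 and 111 with rDKK3. All 4 null libraries were below WT, with log2 differences of -1.13 for DD (SE 0.355, edgeR adjusted p 0.586) and -1.53 for DD + rDKK3 (SE 0.359, adjusted p 0.322). DESeq2 called the second, and so did edgeR without DD 1 and without DD 2.

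Plaur, the urokinase receptor, measured 22.6 and 25.8 CPM in WT, 42.7 and 47.6 in the DD pair, and 25.3 and 26.9 with rDKK3. Its DD libraries were above the other 4, at 0.90 against WT (SE 0.151, edgeR adjusted p 0.300) and the treated null acini differed from DD by -0.79 (SE 0.149, adjusted p 1.00). DESeq2 called the first. Fosl1, an AP-1 subunit, was at 0.90 (SE 0.284) and -0.86 (SE 0.277) in the same comparisons. Ccnd1, which encodes cyclin D1, measured 31.1 and 27.6 CPM in WT, 32.6 and 29.4 in the DD pair, and 19.0 and 18.7 with rDKK3. The libraries with recombinant DKK3 were below the other 4, at -0.72 against DD (SE 0.151, adjusted p 1.00) and -0.64 against WT (SE 0.152, adjusted p 0.322). Sox9, a ductal transcription factor, was at 0.50 (SE 0.188) in DD + rDKK3 against WT, and Myc lay between 55.5 and 61.1 CPM in all libraries. Apcdd1, Ccn4 and Nkd2 were above WT in all 4 null libraries and were not called in the main edgeR fit. In DD against WT they were at 1.05 (SE 0.417), 2.14 (SE 0.978) and 2.35 (SE 1.39). In DD + rDKK3 against WT they were at 0.99, 2.45 and 2.55. Ccn4 measured 6.17 and 7.52 CPM in DD 2 and DD + rDKK3 2, against 0.772 to 1.53 elsewhere, and Nkd2 had at most 15 counts. Of the 16 tested, 12 lay above 0 and 4 below in DD against WT, and 10 and 6 in DD + rDKK3 against WT.

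Over the 9 lists of other pathway genes, 108 in all, 78 were tested, 24 were at or under 3 counts in every library, and 0 were called in any comparison. In DD against WT, 61 lay above 0 and 17 below, with a median log2 fold change of 0.17 beside 0.016 for all genes. Recombinant DKK3 against DD gave 48 above and 30 below, with a median of 0.043 beside -0.0028. DD + rDKK3 against WT gave 62 above and 16 below, with a median of 0.25 beside 0.017. The comparisons against WT share the WT libraries. Without DD 2 and DD + rDKK3 2 the medians were 0.20, -0.01 and 0.17, and the second comparison turned to 35 above and 42 below. Without the filter on low counts, edgeR called 6, 1 and 7 of the pathway genes in the 3 comparisons, beside 484, 70 and 771 of all genes.

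**Figure D4:**
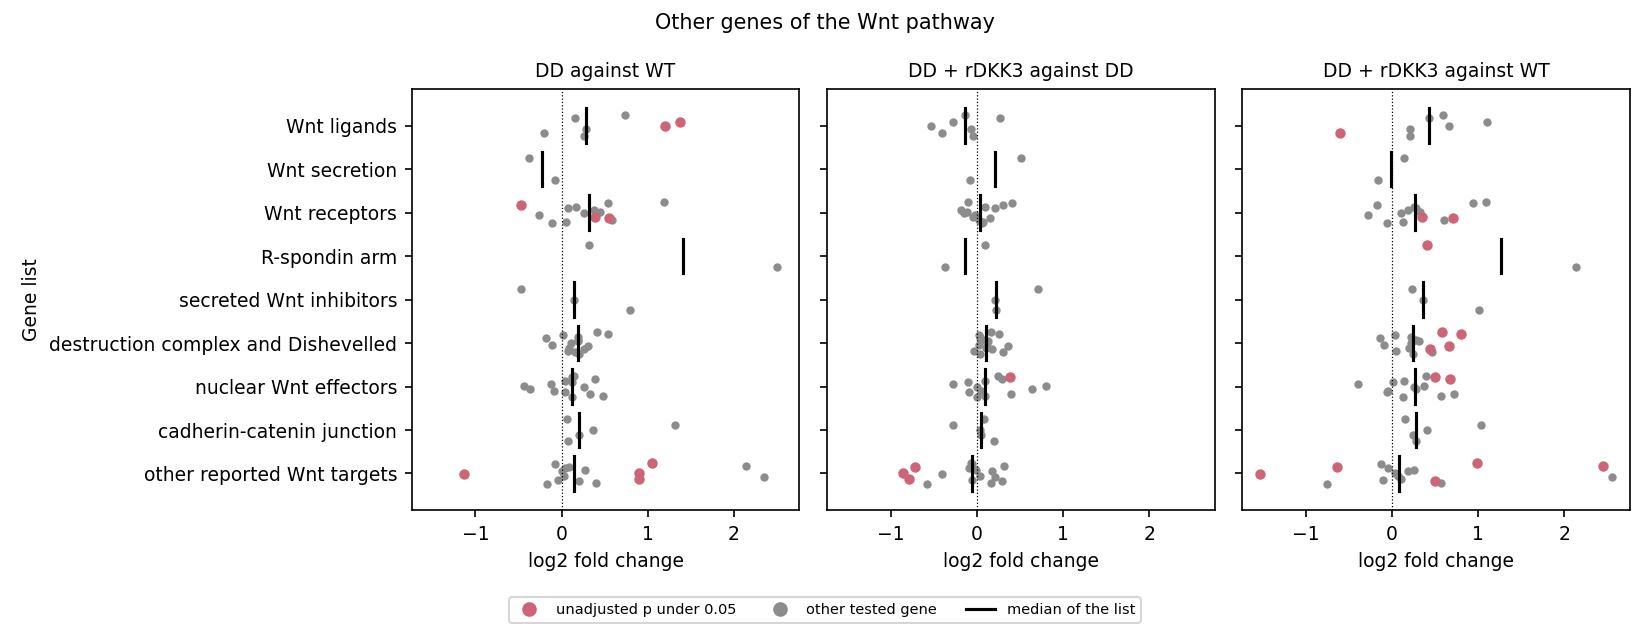
Log2 fold changes of the 78 tested genes of the 9 other Wnt pathway lists, 1 point per gene and 1 panel per comparison, with the median of each list as a bar (edgeR fit, n = 2 libraries per group). Red points have an unadjusted p under 0.05, which held for 9, 4 and 15 of the 78 genes in the panels from left to right (8.26%, 1.98% and 15.3% of all tested genes), and no gene passed after adjustment.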

How the data were processed

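The deposited file is a table of raw counts per gene in 6 libraries of mouse acinar cultures. The authors made these counts by aligning strand-specific reads with STAR 2.7.9a to GRCm39 and the basic GENCODE M32 annotation, counting exon overlaps in union mode and summing exons per gene. Their processing notes also name DESeq2 1.38.0, Picard 2.19.2 and R 4.2.2. Of 57045 features, 92 spike-in rows held 0 counts and were left out.

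In R 4.3.3, edgeR 4.0.16 was used with TMM scaling. Genes were kept with filterByExpr (minimum count 10, minimum total 15), which left 14738. A quasi-likelihood model without a replicate block was fitted over 6 libraries and 3 groups (3 residual and 4.634 prior degrees of freedom, biological coefficient of variation 0.2148). Tests were two-sided, adjusted by Benjamini-Hochberg over all genes tested and called under 0.05. Axin2, Nkd1, Lef1, Sp5 and Lgr5 did not pass the filter and are given as counts, ratios and exact Poisson or binomial intervals at 95%. For Axin2 and Nkd1, log2 fold changes were also taken from fits without the filter. There they started at 0.52 (DD against WT), -0.46 (rDKK3 against DD) and 0.062 (rDKK3 against WT) for Axin2. For Nkd1 they started at 0.24, -0.63 and -0.39 in the same order. The Poisson and binomial intervals and the floor of 3 counts cover counting error only, and no molecular identifiers were counted. The edgeR intervals of log2 differences include the spread between libraries. Exon lengths came from GENCODE M39, in which 118 of 118 listed genes matched. DESeq2 1.42.0 and limma-voom (limma 3.58.1) were alternatives, and scripts were tested on simulated counts. The log2 CPM used for patterns had a prior count of 2.

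The members, gene lists and alternatives were chosen with earlier results of these data known. Named in the text are all members, up to 3 tested genes with the smallest p per pathway list and comparison, genes of a marker list, and the 5 genes closest in pattern to the member that varied most. Dkk3, Wnt9a, Apcdd1, Ccn4, Nkd2, Cdh1, Tcf7l2, Myc, the sex-linked genes and genes at 0 counts were named after their values were seen, as were the counts of genes highest or lowest in 2 libraries and the settings for pathway genes.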

Additional observations from a re-analysis of the deposited data

How the results depend on the processing

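Members gave 0 calls in every comparison under all alternatives (RLE factors, library totals alone, no filter, a stricter filter, DESeq2, limma-voom, a replicate block, each library left out, and DD 2 with DD + rDKK3 2 left out). All 10 were tested only without the filter. Each other setting counted calls only among the members that passed its filter. Of 272 member fold changes recomputed, 237 kept their direction, 35 reversed and 0 became called. Znrf3 kept its sign throughout, as did Rnf43 in both contrasts with rDKK3.

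Counts over all genes moved more. Without the filter 484, 70 and 771 genes were called (DD against WT, rDKK3 against DD, rDKK3 against WT), DESeq2 called 80, 5 and 74, limma-voom called 3 in the last, and leaving out DD 2 and DD + rDKK3 2 gave 14 in the first. Leaving out 1 library gave 2 to 6, 0 and 2 to 9. Pathway genes called were 6, 1 and 7 without the filter, 1, 0 and 2 with DESeq2, and 0 to 1 in the last comparison with 1 library left out. A lone library left in a group is assumed to vary like the others.

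The titles use the same DD numbers with and without rDKK3, but the labels name no shared animal and give different ages. Whether same-numbered null cultures were split from the same preparation cannot be told from them, and numbers were not taken as pairs. Deviations of DD and DD + rDKK3 libraries of the same number correlated at 0.65 over 14738 genes (WT with DD -0.39, WT with DD + rDKK3 -0.25). A replicate block within the null libraries called 65 and 77 genes against WT, 2 of them pathway genes (Ccn4 and Mmp7, both in the second), brought Notum against WT from 1.46 to 0.0098 (DD) and from 1.48 to 0.051 (DD + rDKK3), and turned Rnf43 in DD against WT to -0.00012 and Axin2 in rDKK3 against WT to -0.30.

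Reversed log2 fold changes in DD against WT were Ctnnb1 0.19 and Tcf7 0.082 with library totals alone, Rnf43 -0.0044 and Notum -0.41 with limma-voom, and Ctnnb1 0.11, Nkd1 -0.38 and Tcf7 0.037 without both number 2 null libraries. In rDKK3 against DD they were Tcf7 -0.044 and Notum -0.0072 with library totals alone, Tcf7 -0.013 with limma-voom and Notum -0.055 with DESeq2. In rDKK3 against WT they were Ctnnb1 0.13 and Tcf7 0.038 with library totals alone, Axin2 -0.47 with limma-voom and Tcf7 0.080 without both number 2 libraries. Library totals alone put the median of all genes at 0.22, -0.043 and 0.18 in the 3 comparisons. The cause of the reversals was not tested.

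With 1 library left out, DD against WT ran from -0.12 to 0.11 for Ctnnb1 (high without DD 2), -0.37 to 0.74 for Nkd1, -0.14 to 0.21 for Rnf43, -0.31 to 0.056 for Tcf7 and 0.69 to 2.67 for Notum. In rDKK3 against DD the ranges were -0.13 to 0.095 for Ctnnb1, -2.35 to 0.57 for Axin2, -2.33 to 0.11 for Nkd1, -0.25 to 0.20 for Tcf7 and -3.03 to 0.90 for Notum (low without DD + rDKK3 2). In rDKK3 against WT they were -0.63 to 0.37 for Nkd1, -0.37 to 0.079 for Tcf7 and 0.70 to 2.68 for Notum. For Axin2, Nkd1 and Notum 10 values were not given because the counts left were at the floor or at 0. Notum also did not pass the filter without both number 2 null libraries, and the stricter filter kept none of these 3. Depth limits all 6 members under 1 CPM.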
